A study of Mus musculus with 4 samples.

Results

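The ubiquitin ligase genes of muscle atrophy were examined for phosphorylation of histone 3 at serine 10 (H3S10ph) in mouse gastrocnemius. They were 6 of the 20807 protein-coding genes on the autosomes: *Trim63*, *Trim54* and *Trim55*, which encode the muscle RING finger proteins MuRF1, MuRF3 and MuRF2, and *Fbxo32*, *Fbxo30* and *Fbxo40*, which encode the F-box proteins atrogin-1 (also called MAFbx), MUSA1 and Fbxo40. They were chosen by name and not by a cutoff on any measured value, but with earlier results of these data known. Each gene was taken from its annotated start to its end, called the body, and the 20 kb before the start and after the end, called the flanks, were counted apart. H3S10ph was measured by ChIP-seq, the sequencing of DNA that an antibody to the mark pulls down, in 4 samples, each of which pooled the gastrocnemius muscles of 6 male C57BL/6 mice aged 5 months. In 2 samples the muscle had performed 50 eccentric contractions (tetani of 600 ms at 100 Hz, 1 every 30 s) under xylazine and Zoletil anaesthesia and was collected at once. The other 2 samples were the contralateral muscles, which had not been stimulated. Per the paper they came from the same mice, so they share the anaesthesia and any effect on the whole animal. For the stimulation, the paper's methods also describe exposing the sciatic nerve, suturing wires beside it and cutting the common peroneal nerve. They do not say whether the contralateral leg had this surgery, and its effect apart from the contractions was not tested. For each sample there is a list of broad peaks, stretches of genome where the pulled-down DNA exceeds its background.

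Muscle loses mass when proteins are tagged with ubiquitin and passed to the proteasome faster than they are replaced, and ubiquitin ligases choose the proteins that are tagged. MuRF1 binds titin at the sarcomere and tags thick-filament proteins, and atrogin-1, the substrate receptor of a Skp1-cullin-F-box (SCF) complex, targets MyoD and eIF3f, which drive muscle differentiation and translation. Both genes rise in fasting, denervation and disuse, when FoxO transcription factors enter the nucleus, and insulin and Akt signalling keeps them low. H3S10ph coats condensed chromosomes during mitosis, and in resting cells MAP kinase signalling places it, through MSK kinases, on genes that are being switched on.

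Unstimulated replicate 1 gave 9094 peaks and unstimulated replicate 2 gave 32740, while the stimulated replicates gave 10901 and 40683, so every count below has to be read against the length of its list. The number of reads behind them is unknown. The mice were labelled male. Chromosome X held 522 of the 9094 peaks of unstimulated replicate 1, against 16 to 19 peaks in each of the other 3, longer lists. Chromosome Y held 0 peaks in unstimulated replicate 1, against 7 in unstimulated replicate 2 and 6 in each stimulated list. The list of unstimulated replicate 1 thus stands apart from the other 3, and results are also given without it. Which of the lists is the unusual one was not tested. Most peaks were weak by the peak caller's own measure: 88.7% to 99.03% of each list had a q-value of 1. A gene with no peak is a gene without a call and is not shown to lack the mark. The lists hold no expression, so the labelled tissue could not be checked against its marker genes, and the share of the mark that came from muscle fibre nuclei was not measured.

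Body and flanks together, the 6 genes had 3 and 11 peaks in the unstimulated lists and 6 and 27 in the stimulated lists. *Trim63* was the only one of them with more body peaks in both stimulated than in both unstimulated lists, with 0 and 2 peaks against 4 in each of the stimulated lists. In pooled whole muscle, more nuclei with the mark and more of the mark per nucleus cannot be told apart. Of the 6 genes, 1 and 3 had a peak on the body in unstimulated replicates 1 and 2, where 12.2% and 32.9% of all autosomal genes did. In stimulated replicates 1 and 2 it was 2 and 6 of the 6 genes, against 16.9% and 44.6% of all genes. Stimulated replicate 2 was the only list in which every ligase gene had a body peak, and it was also the longest list. Genes of the same length range, 14510 to 47948 bp, had a body peak in 8.76% and 33.7% of cases in the unstimulated and in 14.5% and 50.8% in the stimulated lists. A flank peak was present at 1 and 4 of the 6 genes in unstimulated muscle, where 9.45% and 42.1% of all genes had one off the body. In stimulated muscle 1 and 5 of the 6 had one, against 18.7% and 56.6% of all genes. The flank counts thus followed the length of the list as they did for other genes.

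**Figure D1:**
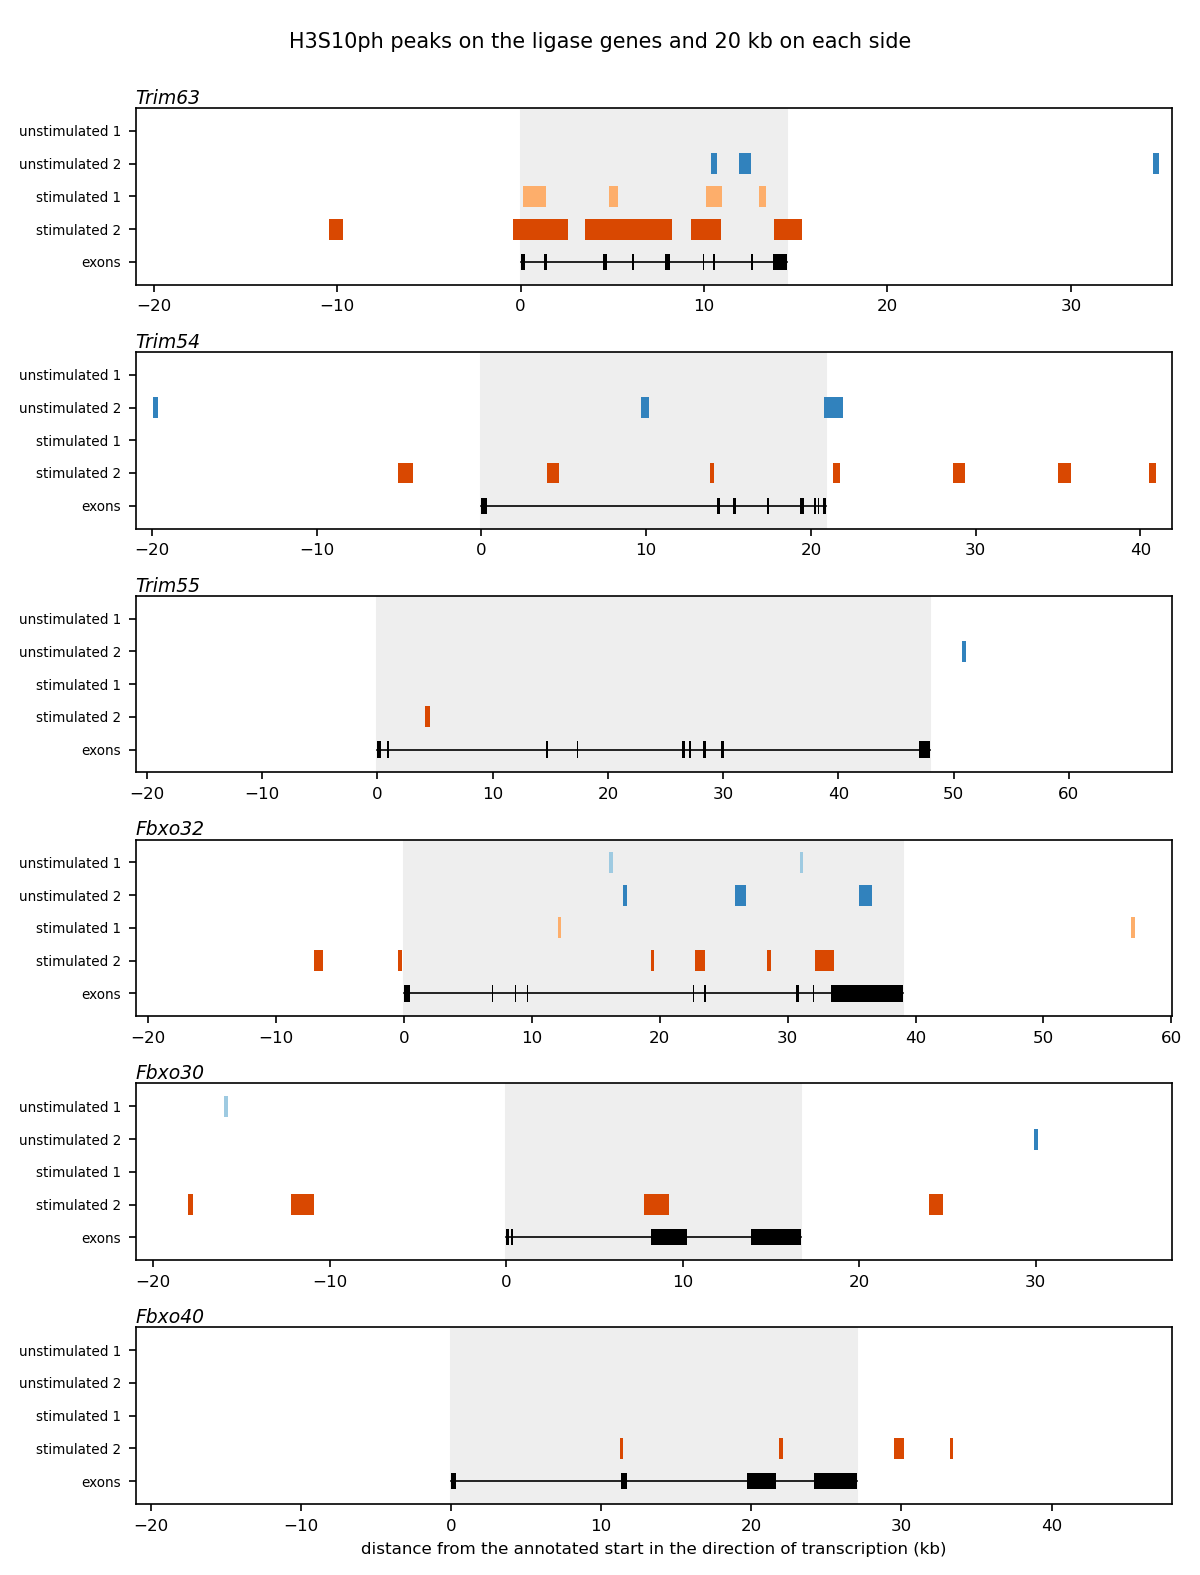
Peaks of the 4 lists (coloured bars, to scale) at the 6 ligase genes, with the distance from the annotated start in kb along the direction of transcription on each horizontal axis, the body shaded and the exons in black. Peaks of both stimulated lists lie near the start, in the interior and on a later exon of *Trim63*, and that of stimulated replicate 2 alone reaches over the start, while at the other 5 genes no peak of one stimulated list overlaps a peak of the other.

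*Trim63* (ENSMUSG00000028834.13, plus strand) spans chr4:134315120-134329629 of the mm10 build. Of the 6 genes its body differed most in covered share between the conditions, and 2 stretches at this gene are printed here in the direction of transcription. Neither is a stretch that only the stimulated lists shared. The upstream sequence is the 250 bases before the start (chr4:134314870-134315119, RefSeq, GRCm38.p6), all under a peak of stimulated replicate 2, and its capitals mark a FoxO element on the reverse strand. The shared region is 300 bases of the stretch that carried a peak in 3 of the 4 lists (chr4:134325528-134325827, RefSeq genome of the same build), and its capitals mark a coding exon of 125 bases.
Trim63 upstream: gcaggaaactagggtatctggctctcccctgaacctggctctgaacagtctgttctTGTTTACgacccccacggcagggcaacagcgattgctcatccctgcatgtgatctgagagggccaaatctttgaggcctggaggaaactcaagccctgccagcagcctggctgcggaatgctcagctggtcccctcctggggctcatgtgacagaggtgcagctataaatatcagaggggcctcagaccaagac
Trim63 shared region: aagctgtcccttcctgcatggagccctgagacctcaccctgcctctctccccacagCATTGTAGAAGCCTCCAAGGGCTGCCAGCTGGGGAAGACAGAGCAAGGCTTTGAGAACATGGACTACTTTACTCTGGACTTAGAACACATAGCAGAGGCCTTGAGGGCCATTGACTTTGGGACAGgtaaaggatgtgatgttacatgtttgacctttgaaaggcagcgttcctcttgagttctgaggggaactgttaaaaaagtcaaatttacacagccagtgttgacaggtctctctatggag

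Peaks covered 0% and 6.52% of the *Trim63* body in unstimulated replicates 1 and 2, and 20.5% and 66.2% in stimulated replicates 1 and 2. Both stimulated lists lay above both unstimulated lists. The means were 3.26% ± 4.61 (SD, n = 2) and 43.3% ± 32.3 (SD, n = 2), a difference of 40.1 percentage points. The two-sided exact permutation test gave p = 0.333, which is the smallest value that 2 samples against 2 allow, so significance could not be reached. Without unstimulated replicate 1 the unstimulated value was 6.52%, still below both stimulated lists. Of all autosomal genes, 5.23% had a higher covered share in both stimulated than in both unstimulated lists, and *Trim63* was the only ligase gene among them. The reverse order, lower in both stimulated lists, held for 1.51% of all genes and for 0 of the 6.

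**Figure D2:**
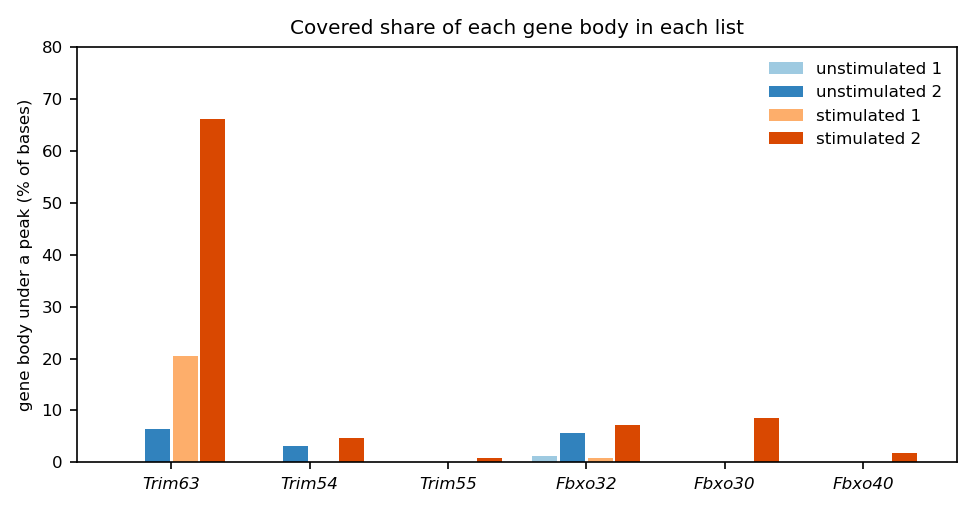
Share of the bases of each gene body under a peak (percent, vertical axis from 0) in each of the 4 lists, with 1 bar per list. The bars of *Trim63* reach 20.5% and 66.2% in the stimulated lists, and no bar of the other 5 genes exceeds 8.47%.

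The *Trim63* coverage was also high beside other genes of the same list. Counting *Trim63* itself, 46 genes in stimulated replicate 1 and 21 in stimulated replicate 2 had as large a share of the body under peaks, and in unstimulated replicate 2 it was 448 genes. A share of at least 20.5% in both stimulated lists was found for 16 genes, of which 3 were in the length range of the ligase genes. *Trim63* is itself the lower end of that range, so the genes in it are no shorter and are not matched to its length. At least 4 body peaks in both stimulated lists were found for 149 genes (0.716%), and *Trim63*, with 14510 bp, was the shortest of them, their median length being 588787 bp. Both cutoffs are the values of *Trim63* itself, so that it met them was fixed in advance.

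Among the 4 lists, only those of stimulated muscle had a peak at the start of *Trim63* or close after it. In stimulated replicate 1 a peak of 1246 bp (chr4:134315246-134316491) began 126 bp after the start, with a fold enrichment of 2.36 and rank 3027 of 10901. In stimulated replicate 2 a peak of 2958 bp (chr4:134314718-134317675) took in all 250 bases before the start as well, with a fold of 2.49, a −log10 p of 3.24 and rank 816 of 40683. The second peak contains the first. Neither unstimulated list had a peak here, and the stretch before the start printed above was under a peak in stimulated replicate 2 alone.

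The interior of *Trim63* held a second stretch that only the stimulated lists shared. It was a peak of 478 bp in stimulated replicate 1 (chr4:134319929-134320406, fold 2.32, rank 3785) inside a peak of 4742 bp in stimulated replicate 2 (chr4:134318615-134323356, fold 2.30, rank 3731). The wider of these covered 499 coding bases, and the narrower lay within an intron.

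The third shared stretch, the one printed above, was not particular to stimulated muscle. Unstimulated replicate 2 had a peak of 318 bp there (chr4:134325519-134325836), with a fold of 2.44 and rank 886 of 32740, its strongest on any ligase gene. The peaks of stimulated replicates 1 and 2 at the same place were wider, 875 bp (fold 2.44, rank 1818) and 1627 bp (fold 2.13, rank 14269.5). All 3 held the whole 125-base coding exon.

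Toward the end of *Trim63* the lists no longer shared a peak. Unstimulated replicate 2 had an intronic peak of 628 bp at the fold of 2.02 that 7684 peaks of its list share, and stimulated replicate 1 had one of 374 bp (rank 7669). Stimulated replicate 2 had a peak of 1523 bp over the end of the gene (fold 2.26, rank 5354), of which 681 bp lay in the untranslated part of the last exon. In stimulated replicate 2 the peaks covered 93.5% of the exon bases of *Trim63*, against 19.5% in stimulated replicate 1 and 0% and 6.63% in the unstimulated lists. The flanks held little: stimulated replicate 2 had 1 peak far upstream at the commonest fold of its list, and unstimulated replicate 2 had 1 peak at the outer edge of the downstream flank, on the zinc transporter gene *Slc30a2*.

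The order of the lists at *Trim63* was kept without the weakest peaks and with lists of equal length, but not at the strictest threshold. A shortened list keeps the peak widths called in the full list, so the part of sequencing depth was not tested. Among peaks whose −log10 p was 2.5 or more, the body had 0 and 1 in the unstimulated lists and 3 in each of the stimulated ones, and 0%, 2.19%, 17.9% and 55.0% of it was covered. With each list cut to its 9094 best peaks the counts were 0 and 1 against 4 and 3. Among peaks whose −log10 p was 3 or more, only the start peak of stimulated replicate 2 was left.

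*Trim54* (chr5:31116712-31137630, plus strand) encodes MuRF3, which binds microtubules and, with MuRF1, takes part in turnover of myosin. It had 2 body peaks in unstimulated replicate 2, 2 in stimulated replicate 2 and 0 in both of the shorter lists. The covered share of the body was 0% and 3.19% in unstimulated and 0% and 4.74% in stimulated muscle, so the groups overlapped. All of these peaks but 1 lay in introns. The exception was the peak of unstimulated replicate 2 over the end of the gene (chr5:31137495-31138635), which runs on over *Ucn*, the gene of the peptide hormone urocortin. A peak of stimulated replicate 2 on *Ucn* (chr5:31138036-31138466, fold 2.36, rank 2461) overlapped it, 406 bp past the end of *Trim54*, and this was the fourth and last region at the ligase genes that more than 1 list held. The remaining flank peaks of stimulated replicate 2 lay on *Dnajc5g*, on *Mpv17* (2 peaks), a gene of the inner mitochondrial membrane, and on *Gtf3c2*, a subunit of the RNA polymerase III factor TFIIIC. Unstimulated replicate 2 had 1 on the zinc transporter gene *Slc30a3*.

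*Trim55* (chr3:19644474-19692421, plus strand) encodes MuRF2, which links titin to nuclear signalling. It is the longest of the 6 genes and had the fewest peaks. Its body held 1 intronic peak, of 424 bp in stimulated replicate 2 (0.884% of the body, rank 19905.5 of 40683), and none in the other 3 lists. A flank peak of unstimulated replicate 2 lay downstream on *Crh*, the gene of corticotropin-releasing hormone.

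*Fbxo32* (chr15:58175879-58214932, minus strand) was the only ligase gene with a body peak in each of the 4 lists. The strongest ligase-gene peak of stimulated replicate 2 lay just before its start (chr15:58215131-58215366), and its sequence is printed in the direction of transcription from the RefSeq genome, with the 52 bases that fall within 250 of the start in capitals.
Fbxo32 upstream peak: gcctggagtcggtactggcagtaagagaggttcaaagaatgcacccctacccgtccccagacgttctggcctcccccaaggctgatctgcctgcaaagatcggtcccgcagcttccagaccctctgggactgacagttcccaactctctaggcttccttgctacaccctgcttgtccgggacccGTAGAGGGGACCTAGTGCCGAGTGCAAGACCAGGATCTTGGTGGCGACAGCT

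This upstream peak ended 199 bp before the start of *Fbxo32* and was 236 bp wide, with a fold of 2.58, a −log10 p of 3.43 and rank 394 of 40683, within the first 0.968% of its list. No other list had a peak there. This peak and the other upstream peak of stimulated replicate 2 also overlapped *Gm15943*, a gene not annotated as protein-coding. On the body of *Fbxo32* there were 2 and 3 peaks in unstimulated muscle against 1 and 4 after stimulation, and these covered 1.32% and 5.64% against 0.758% and 7.19% of it. The lowest and the highest value were both from stimulated muscle, so the conditions were not separated, and the means of 3.48% ± 3.06 and 3.97% ± 4.55 (SD, n = 2) differed by less than the spread between replicates (two-sided exact permutation test, p = 1). None of the 10 body peaks overlapped a peak of another list. Of all genes, 6.92% had a peak on the body or in the flanks in all 4 lists, as *Fbxo32* did. A body peak in both unstimulated lists was found for 8.36% of all genes and for 1 of the 6, *Fbxo32*. A body peak in both stimulated lists was found for 13.0% of all genes and for 2 of the 6, *Trim63* and *Fbxo32*. Peaks on the body in both stimulated but neither of the unstimulated lists were found for 2.88% of all genes and for 0 of the 6. The best *Fbxo32* peak of stimulated replicate 1 was downstream, on *Wdyhv1*, which encodes an amidohydrolase of the N-end rule pathway (rank 1896 of 10901).

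*Fbxo30* (chr10:11281330-11298052, plus strand) encodes MUSA1, a ligase gene that BMP signalling holds down. Its strongest peak was in unstimulated muscle. It lay 15751 bp upstream, inside the non-coding gene *4930432B10Rik* (chr10:11265332-11265579), and its sequence is printed because it is the best-ranked ligase-gene peak of its list, read from the plus strand of the RefSeq genome and with 29.0% G and C.
Fbxo30 upstream peak: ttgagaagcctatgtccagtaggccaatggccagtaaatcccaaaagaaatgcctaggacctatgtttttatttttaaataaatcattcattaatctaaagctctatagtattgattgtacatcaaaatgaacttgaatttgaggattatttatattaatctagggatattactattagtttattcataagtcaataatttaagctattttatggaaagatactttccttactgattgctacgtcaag

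That peak of unstimulated replicate 1 had a fold of 2.62, a −log10 p of 3.44 and rank 248 of 9094. It is in the list that stands apart, and without that list no ligase-gene peak of unstimulated muscle had a −log10 p of 3 or more. On the body, *Fbxo30* had 1 peak, in stimulated replicate 2, of 1416 bp (8.47% of the body). This peak covered 1042 coding bases, at the fold of 2.01 that 8179 peaks of that list share. The flanks of *Fbxo30* held 3 further peaks of stimulated replicate 2 and 1 of unstimulated replicate 2 (rank 4944.5), none of them overlapping.

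*Fbxo40* (chr16:36963460-36990467, minus strand) encodes a muscle-restricted F-box protein that targets IRS1, the insulin receptor substrate. It had peaks in stimulated replicate 2 alone, 2 on the body (1.88% of it) and 2 downstream. The stronger body peak (chr16:36978980-36979221, fold 2.35, rank 2588.5) lay over the inner of its annotated starts, where 157 of its bases were untranslated exon. The 85 bases of the peak before that start (chr16:36979137-36979221) are printed on the minus strand to show the part upstream of the start that lay under the peak.
Fbxo40 inner start: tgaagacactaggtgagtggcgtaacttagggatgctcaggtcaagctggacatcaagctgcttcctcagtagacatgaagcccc

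The downstream peaks of *Fbxo40* lay on *Hcls1*, a gene of blood-cell lineages, and the stronger of them had rank 2135.

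**Figure D3:**
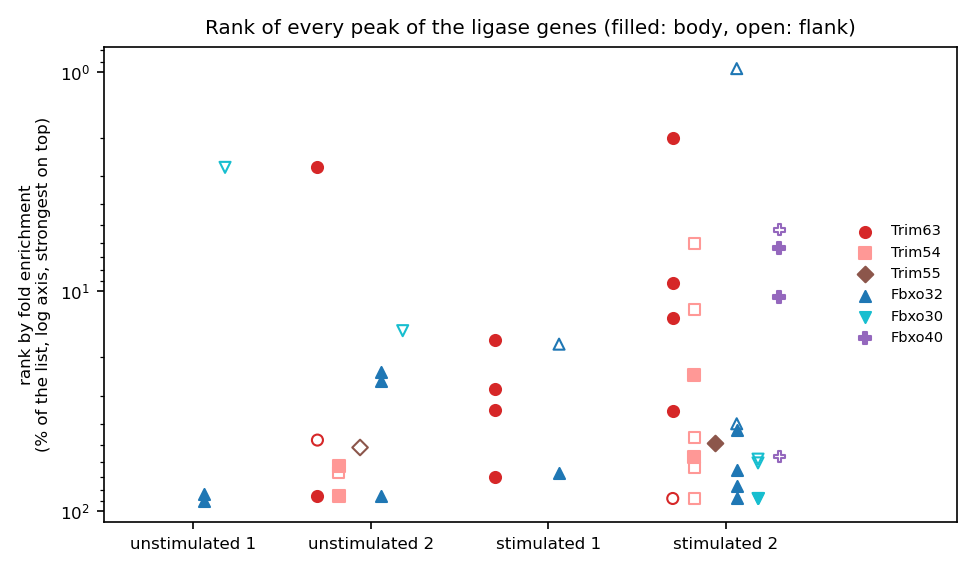
Rank of every ligase-gene peak by fold enrichment within its own list, as percent of the list on a log axis with the strongest on top; filled symbols are body peaks and open symbols flank peaks. Stimulated replicate 2 holds 6 peaks within the first 10%, and stimulated replicate 1 holds none.

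Ranks within a list did not separate the conditions. The best ligase-gene peak stood at 2.73% (*Fbxo30*) and 2.71% (*Trim63*) of the unstimulated lists, and at 16.7% (*Trim63*) and 0.968% (*Fbxo32*) of the stimulated lists. The first 10% of the list held 1 of 3, 1 of 11, 0 of 6 and 6 of 27 ligase-gene peaks, in the order unstimulated replicates 1 and 2 and stimulated replicates 1 and 2. The fold enrichments lay between 2.01 and 2.62. A q-value below 1 was given to 2 of the peaks, both on the *Trim63* body in stimulated replicate 2. Their −log10 q was only 0.0841 and 0.0119, so these 2 were weak by this measure as well. Width, in contrast with rank, was largest there too: 7 of the 27 peaks of stimulated replicate 2 were wider than 1000 bp, against 0 and 2 in the unstimulated lists and 1 in stimulated replicate 1. The median widths were 248 and 383 bp in unstimulated and 426 and 731 bp in stimulated muscle, and in all peaks of these lists they were 380, 418, 360 and 457 bp. Of the 6 peaks of stimulated replicate 1, 4 were on *Trim63* (1246, 478, 875 and 374 bp). The peaks of that list at *Fbxo32* were 266 and 296 bp wide, narrower than the median of unstimulated replicate 2. In stimulated replicate 2 the widest, of 4742, 2958, 1627 and 1523 bp, were also on *Trim63*. The share of all peaks wider than 1000 bp is not given here.

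Most ligase-gene peaks were seen in a single list. Merging overlapping peaks gave 42 regions, of which 38 (90.5%) were in 1 list only, and over all autosomes 97.9% of 90398 regions were. Both stimulated lists shared 3 of the 42, all on *Trim63*, and both unstimulated lists shared 0. Over all autosomes these shares were 0.488% and 0.316%.

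To set lists of different length side by side, the covered share of the body and flanks of all 6 genes was divided by the covered share of the autosomes in the same list. The covered shares were 0.188% and 1.42% in unstimulated and 0.870% and 6.18% in stimulated muscle, where the autosomes had 0.181%, 0.698%, 0.228% and 0.940%. The ratios were 1.03 and 2.03 in unstimulated and 3.81 and 6.58 in stimulated muscle, so both stimulated lists lay above both unstimulated lists. The means of the ratio were 1.53 ± 0.702 and 5.20 ± 1.96 (SD, n = 2), a difference of 3.67 (two-sided exact permutation test, p = 0.333, the smallest possible). Without unstimulated replicate 1 the difference was 3.17. The order rested on *Trim63*. For the other 5 genes, a comparison added after the values were seen, the ratios were 1.19 and 1.94 against 0.700 and 4.09, with stimulated replicate 1 the lowest of all, and the difference was 0.825 (exact permutation test, p = 1). The number of ligase-gene peaks differed by 9.5 between the group means, the number of genes with a body peak by 2, the number with a flank peak by 0.5 and the covered share by 2.72 percentage points, each by less than the larger SD of the groups (exact permutation tests, p from 0.667 to 1).

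**Figure D4:**
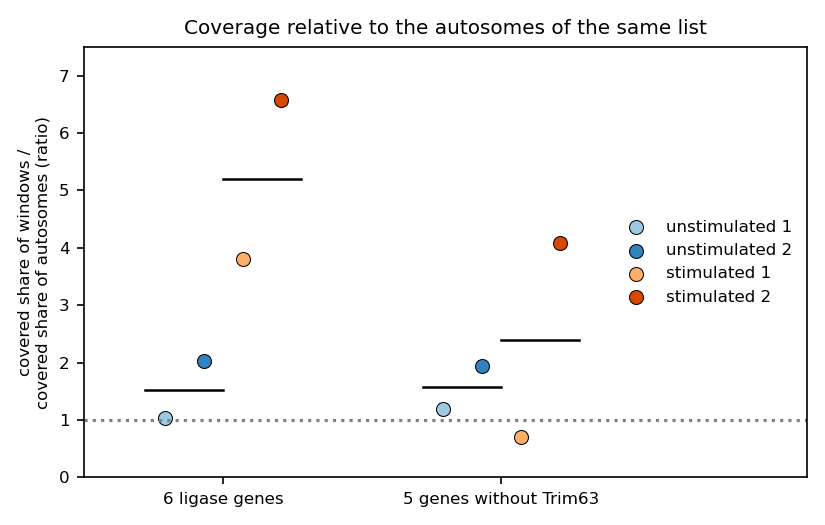
Covered share of the gene windows divided by that of the autosomes of the same list (ratio, vertical axis from 0; dotted line at 1), with 1 point per list and group means as lines, for all 6 ligase genes and for the 5 without *Trim63*. With *Trim63* the stimulated points (3.81 and 6.58) lie above the unstimulated ones, and without it stimulated replicate 1 (0.700) lies below both.

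By family, the 3 *Trim* bodies together were covered to 0% and 1.93% in unstimulated and 3.57% and 13.2% in stimulated muscle. The 3 *Fbxo* bodies were covered to 0.621% and 2.66% against 0.358% and 5.71%. The *Trim* values of the groups did not overlap and the *Fbxo* values did, and at *Trim54* and *Trim55* alone the groups overlapped or tied as well.

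The promoter sequences, from 250 bases before to 50 after a start, were found for 4 of the 6 genes in the RefSeq table for GRCm38.p6 (5 promoters, 2 of them of *Fbxo40*). The letters of a FoxO element, GTAAACA on either strand, occurred once in the *Trim63* promoter, 194 bases before the start, and in none of the other 4, and 3.65% of 32851 promoters held them. This match lay under the start peak of stimulated replicate 2 and outside that of stimulated replicate 1. The AP-1 letters TGANTCA occurred once, in the *Trim54* promoter (7.81% of all promoters), which had no peak in any list. E-box letters, CANNTG, stood in the promoters of *Trim63* (3 matches), *Trim54* (2) and *Fbxo40* (4 and 2), and in 72.3% of all promoters. None of the 5 held the CRE letters TGACGTCA (1.79% of all promoters) or a CArG box, the SRF element (1.63%). A match of letters is a description of the sequence and no evidence that a factor is bound.

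The other genes of the ubiquitin and atrophy pathway were taken from 7 lists with 42 genes, of which 41 were autosomal and *Foxo4*, on chromosome X, had no peak. Body peaks were present at 2 and 18 of the 41 in unstimulated and at 8 and 25 in stimulated muscle, or 4.88%, 43.9%, 19.5% and 61.0%. In each list but that of unstimulated replicate 1 this was above the share of all genes given above, and in no list was it above the share of the ligase genes. Both stimulated lists had a body peak at 7 of them, among which were *Fbxo31*, *Nedd4*, *Ubr2*, *Foxo1*, *Foxo6* and *Nr3c1*, and both unstimulated lists at 2 (*Cul1* and *Nr3c1*). Of all genes, 13.0% had a body peak in both stimulated and 8.36% in both unstimulated lists. The covered share was higher in both stimulated than in both unstimulated lists at 3 of the 41, with *Foxo6* and *Ubr2* among them. This held for 5.23% of all genes.

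**Figure D5:**
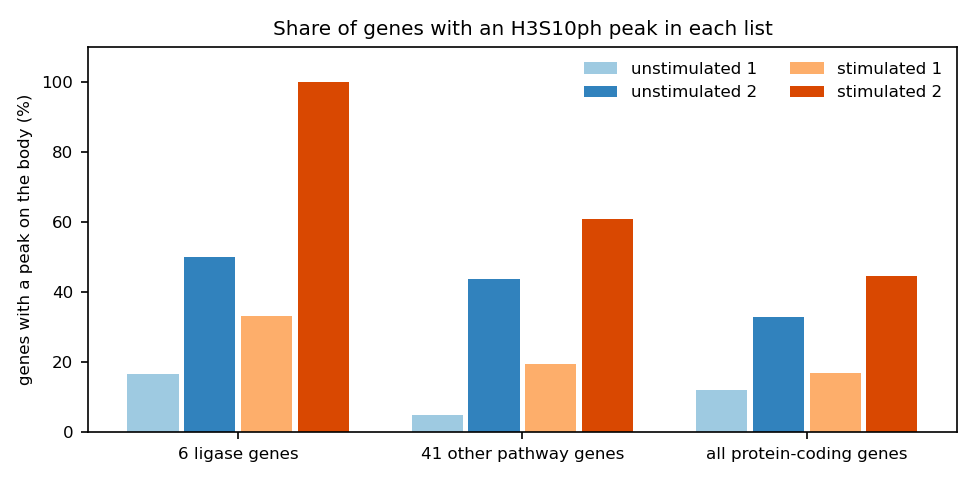
Share of genes with a peak on the body (percent, vertical axis from 0) in each of the 4 lists, for the 6 ligase genes, the 41 other autosomal pathway genes and all autosomal protein-coding genes. In every gene set the lists of replicate 2 give the higher bars of their condition, up to 100% for the ligase genes in stimulated replicate 2.

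The FoxO genes, which encode the factors that drive *Trim63* and *Fbxo32*, had body peaks at 0 and 2 of the 3 autosomal members in unstimulated and at 2 and 3 in stimulated muscle. *Foxo1* and *Foxo3* span 84886 and 94915 bp, against a median of 17629 bp for all genes. *Nedd4*, *Ubr2*, *Cul1* and *Nr3c1*, described below, span 87507, 82262, 72742 and 108877 bp. *Foxo6* and *Fbxo31* are shorter, with 20271 and 29367 bp. The peak counts of these genes were not set against genes of like length. *Foxo6* was covered to 9.54% and 7.69% in the stimulated lists and had no peak in the unstimulated ones, but the peaks of the stimulated lists did not overlap. *Foxo1* had 0 and 1 body peaks in unstimulated and 1 and 3 in stimulated muscle, none of them overlapping. At *Nedd4*, a HECT-type ligase, a peak of stimulated replicate 1 (chr9:72709267-72709501) overlapped one of stimulated replicate 2 (chr9:72709082-72709418), and another peak of stimulated replicate 2 ranked 373. *Ubr2*, a ligase of the N-end rule, was covered to 0% and 0.647% in unstimulated and 0.887% and 1.80% in stimulated muscle. *Fbxo31* was covered to 0%, 0.896%, 2.95% and 0.824%, in the same order. *Cul1*, the cullin that carries atrogin-1 and the other F-box proteins, had 1 peak in each unstimulated list and 0 and 2 in the stimulated lists, and *Nr3c1*, the glucocorticoid receptor gene, had 3 and 3 against 1 and 5. The 4 proteasome genes had a body peak in stimulated replicate 2 only, at 2 of them, and the 6 autophagy genes had 2 with a peak in each list of replicate 2 and 0 in the shorter lists. Of all genes, 12.2% and 32.9% had a body peak in the unstimulated lists and 16.9% and 44.6% in the stimulated lists.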

How the data were processed

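H3S10ph ChIP-seq peaks were analysed from 4 samples, 2 of stimulated and 2 of unstimulated muscle, grouped by their labels. Per the paper's methods, the authors mapped reads to mm10, dropped reads with several map positions, thinned replicates to equal read numbers and called broad peaks with MACS2 against input DNA, sample by sample. The submitters' processing notes name BWA 7.12, SAMtools 2.4.0 and MACS2 2.1.1. The cutoff on p in the methods is stricter than the weakest deposited peaks, whose −log10 p was about 2. The deposited lists give each peak a fold enrichment, which is a ratio to the background, a −log10 p-value and a −log10 q-value. The score column was not used. The lists hold no counts or coverage, so no depth or counting interval can be given.

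Genes were those of GENCODE M21, and an overlap was at least 1 bp. Peaks were ranked by fold within a list, and ties were given their mean rank. Groups were compared over samples by two-sided exact permutation tests. The code that counts overlaps was checked on simulated peaks with known positions, and no overlap was compared with random peaks. Python 3.11.15, numpy 2.4.6, pandas 2.3.3, matplotlib 3.10.9 and samtools 1.23.1 were used. The text names the 6 ligase genes, coding genes under their flank peaks, and pathway genes with body peaks in both lists of a condition or in the first 1% of a list. Not every pathway gene that met this rule is reported here. The genes and lists were chosen with earlier results of these data known. Alternatives were stricter −log10 p, lists of equal length, 50% of the peak inside, flanks of 10 and 50 kb, another denominator, ranks by −log10 p, each replicate left out and the replicate number as a block. Leaving out *Trim63* was added after the data were seen.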

Additional observations from a re-analysis of the deposited data

How the results depend on the processing

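Under other settings, 58 recomputed values kept their direction or, for the best ranks, the same gene, 2 differences became 0 and 3 changed sign. Among the 58 are the values of the replicate block, whose direction could not change. No setting allowed a p under the threshold. Among peaks whose −log10 p was 3 or more, the difference in genes with a flank peak (stimulated minus unstimulated) was 0. With 1 replicate left out, the difference in genes with a body peak ranged from 0 (without stimulated replicate 2) to 4. The difference in genes with a flank peak ranged from −1.5 (without stimulated replicate 2) to 2.5, and it was −1 without unstimulated replicate 1. The difference in ligase-gene peaks ranged from −1 (without stimulated replicate 2) to 20, that in covered share from 0.0684 to 5.38 percentage points, and that in the ratio to the autosomes from 2.28 to 5.05. The ratio difference was 1.65 with flanks of 50 kb, 11.3 with a −log10 p of at least 2.5, 8.08 with lists of equal length and 13.6 with a −log10 p of at least 3, where only stimulated replicate 2 and unstimulated replicate 1 still had ligase-gene peaks.

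Both muscles came from the same mice, but the labels do not say whether a replicate number marks the pools of the same 6 mice, so the pairing is not known. Over 20807 genes the deviations from the group means of same-numbered lists correlated with r = 0.0323. With the replicate block the differences were 2, 0.5, 9.5, 2.72 percentage points and 3.67 for the 5 quantities in the order body genes, flank genes, peaks, covered share and ratio, and the 2 within-number differences of the ratio were 2.78 and 4.55. These mean differences equal those without the block by arithmetic, so the unchanged directions carry no information. With 2 pairs no test can reach significance. The authors thinned replicates to equal read numbers, but the lists do not show the reads behind them, and the part of reads in the differing list lengths was not tested.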
